A study of Homo sapiens with 9 samples.

Results

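Genes of the endoplasmic reticulum (ER) stress response and of the ATF4 amino acid programme were followed in LX-2 cells, an immortal line grown from human hepatic stellate cells, which are the collagen-producing cells of the liver. The 39 genes were taken by symbol from a table of read counts that lists 20777 genes, and all 39 passed the filter on low counts, as did 13384 genes in all. RNA of 9 libraries was sequenced, 3 from untreated LX-2 cells (control group), 3 from cells given TGF-β (TGF-β group) and 3 from cells given both TGF-β and uridine (called the TGF-β + uridine group). The labels place both treatments on day 1, describe the line as wild type and give no dose, and the study's methods add that uridine came with fresh medium after a period of TGF-β. All groups are the same cell line, and nothing in the labels says whether the 3 libraries of a group came from separate cultures, so p-values measure only the spread between these libraries. TGF-β is the main cytokine that turns stellate cells into matrix-secreting myofibroblasts, and the question here is how the genes that handle secretory load and amino acid supply stood in each group.

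Cells meet a load of unfolded protein in the ER through 3 membrane sensors. IRE1 (gene ERN1) splices the mRNA of XBP1 into the form that encodes an active transcription factor, ATF6 is cut in the Golgi to release its own factor domain, and PERK (gene EIF2AK3) phosphorylates the translation factor eIF2α. The last step, shared with kinases that sense amino acid shortage and other stresses, slows general translation while favouring that of ATF4, which induces amino acid transporters, aminoacyl-tRNA synthetases and the enzymes of serine, glycine, asparagine and proline synthesis. Counts of reads per gene record neither the splicing of XBP1, the cleavage of ATF6 nor the translation of ATF4, so what follows is about mRNA levels. In stellate cells these genes matter because collagen is made in the ER and is rich in glycine and proline.

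None of the 39 genes passed the test in any of the 3 comparisons. By edgeR's quasi-likelihood test with Benjamini-Hochberg adjustment over all tested genes at an adjusted p under 0.05, 0 genes were called in TGF-β against control, 0 in TGF-β + uridine against TGF-β and 0 in TGF-β + uridine against control. The same test called 3.38%, 0.0448% and 5.33% of all tested genes. At an unadjusted p under 0.05 it marked 3, 2 and 4 of the 39 genes, against 12.1%, 8.79% and 17.6% of all tested genes, and DESeq2 called 0 of the 39 in each comparison. The median log2 fold change of the 39 genes was -0.02, 0 and 0.02, beside -0.05, 0.02 and -0.01 over all tested genes. Any 2 of the comparisons share the libraries of 1 group, so their values are given side by side and not as independent evidence.

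The intervals set how much change the data still allow. The 95% interval of the log2 fold change lay within a 2-fold change either way for 31, 30 and 30 of the 39 genes in the 3 comparisons, and within a 1.5-fold change for 20, 18 and 21 of them. The median standard error was 0.2 on the log2 scale for these genes and 0.25 over all tested genes. The widest interval in TGF-β against control was that of DNAJB9, with 1 to 48 reads in a library, and ran from -1.63 to 2.02, which leaves changes of more than 2-fold in either direction inside it.

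**Figure D1:**
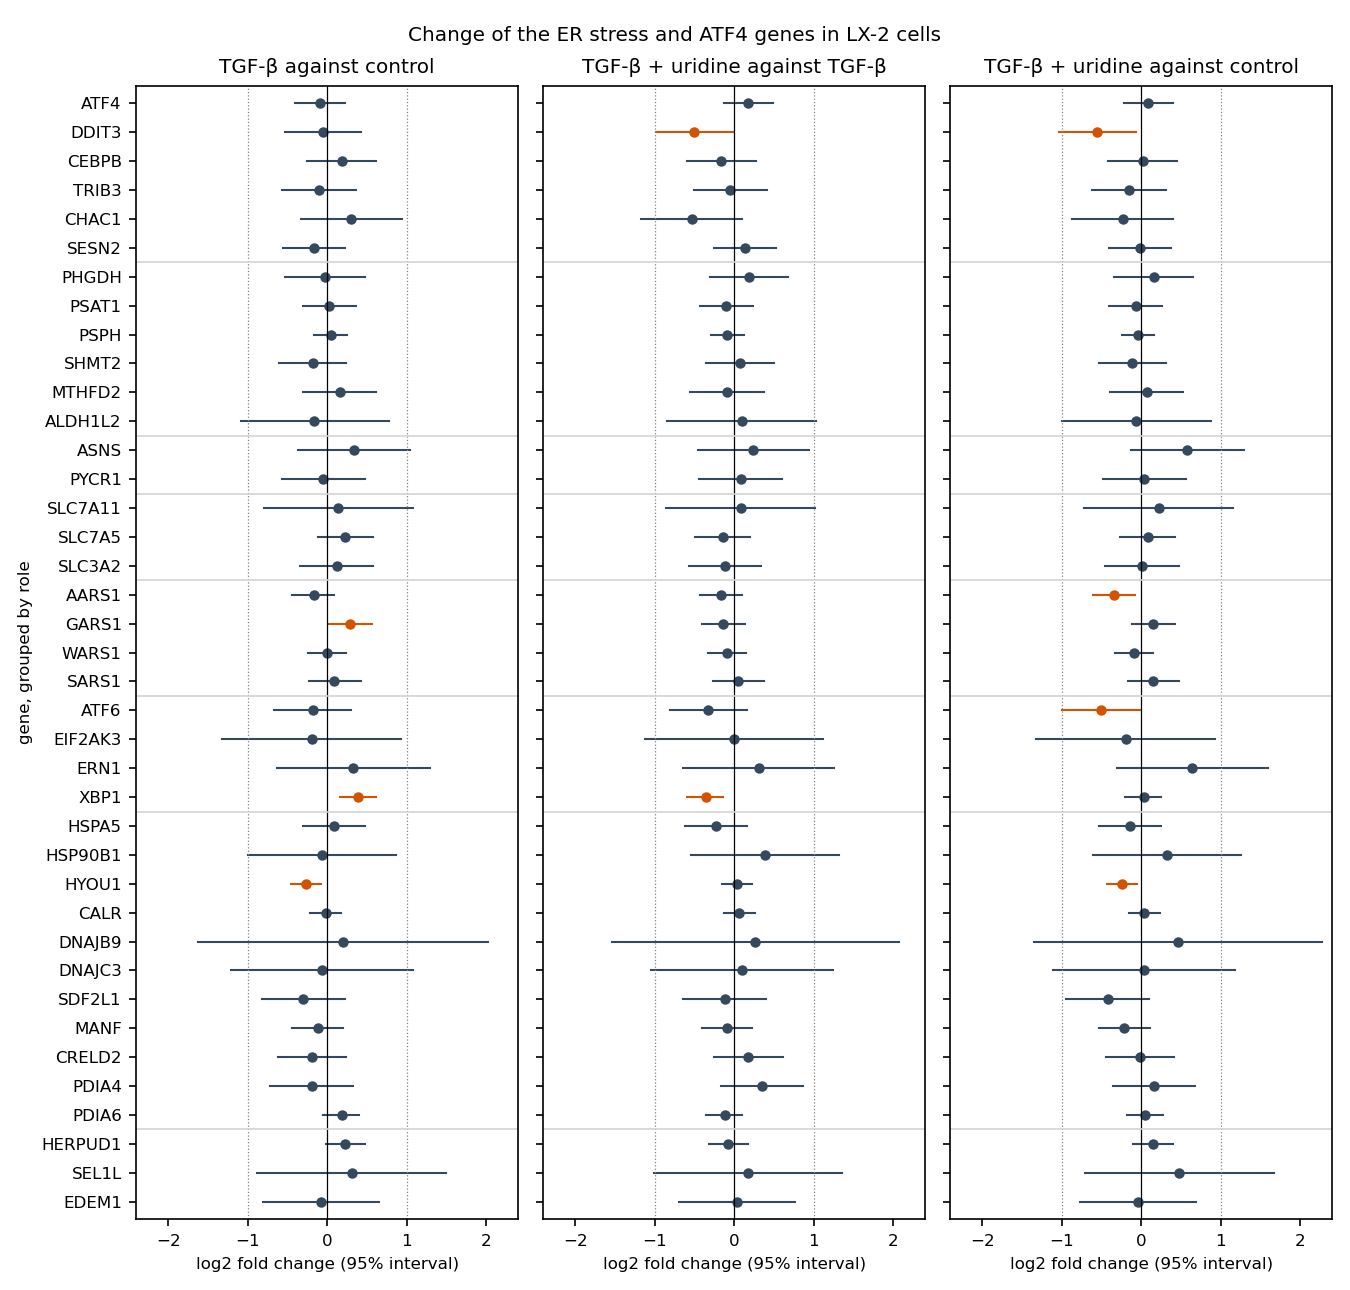
Log2 fold change of each of the 39 genes (point) with its 95% interval (line) in the 3 comparisons, grouped by role, with grey dotted lines at a 2-fold change either way and orange marking an unadjusted p under 0.05. The points scatter around 0, from -0.3 to 0.39 in TGF-β against control, and the orange genes number 3, 2 and 4 in the 3 panels.

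The libraries were even in depth, with 40539751 to 41467124 counted reads and 16157 to 17108 genes with reads. They were less even in composition. For each library, the log2 level of each gene minus its mean over all libraries was set against the GC content of the transcript. The slope was 0.56, -0.07 and -0.4 per 10 percentage points of GC in control replicates 1, 2 and 3. With TGF-β it ran from -0.03 to 0.05, and with TGF-β + uridine from -0.26 to 0.23. These slopes are relative to the mean of all libraries, so they do not show whether a library was free of a GC trend. The TGF-β treatment was seen in PMEPA1 and ACTA2, textbook TGF-β response genes, which rose, with log2 fold changes of 2.59 and 1.58 (adjusted p 3.5e-06 and 0.0106, edgeR), the second of them not called without control replicate 2, TGF-β replicate 1 or TGF-β replicate 2. Of the stellate and fibroblast markers, VIM stood at 438 to 852 FPKM, THY1 at 42.3 to 62.1, COL1A1 at 7.34 to 12.7 and PDGFRB at 1.91 to 5.21. COL3A1, which also marks these cells, stood at only 0.0752 to 0.454 FPKM, and COL1A2, a further marker, had at most 1 read in a library. The hepatocyte markers APOA1, SERPINA1 and CYP3A4 stayed at or below 0.0799 FPKM, the epithelial and endothelial markers at or below 1.15, and of the immune markers CD14 stayed at or below 0.177 and CD68 stood at 16.8 to 22.7.

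The levels of the 39 genes spanned a wide range. FPKM, which divides each count by the depth and by 1 fixed length per gene, allows genes to be ranked against each other, and the mean over the 9 libraries ran from 604 for SLC7A5 to 0.115 for ERN1. The ranks depend on those lengths, which can differ from the longest GENCODE v29 transcript. The length was 7716 bases against 2019 for ATF4, and 2675 against 3416 for SHMT2. SLC7A5 and SLC3A2, at 604 and 456 FPKM, are the light and heavy chains of one transporter of large neutral amino acids and took the first and second place. CALR (calreticulin, a calcium-binding lectin chaperone) followed with 441 FPKM, and these 3 genes stood at percentiles 99.1, 98.9 and 98.8 of all tested genes. At the other end, ERN1, DNAJC3, DNAJB9, CHAC1, ALDH1L2, ASNS and EIF2AK3 all had means below 1 FPKM. The sensors sat far below HSPA5 (BiP, the main ER chaperone), with ATF6 at 3.68 FPKM, EIF2AK3 at 0.732 and ERN1 at 0.115 against 95.2, although the cochaperones DNAJB9 and DNAJC3 were lower than ATF6 and EIF2AK3. Targets of ATF4 were as uneven, with TRIB3 at 49.2 FPKM and ASNS at 0.708.

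**Figure D2:**
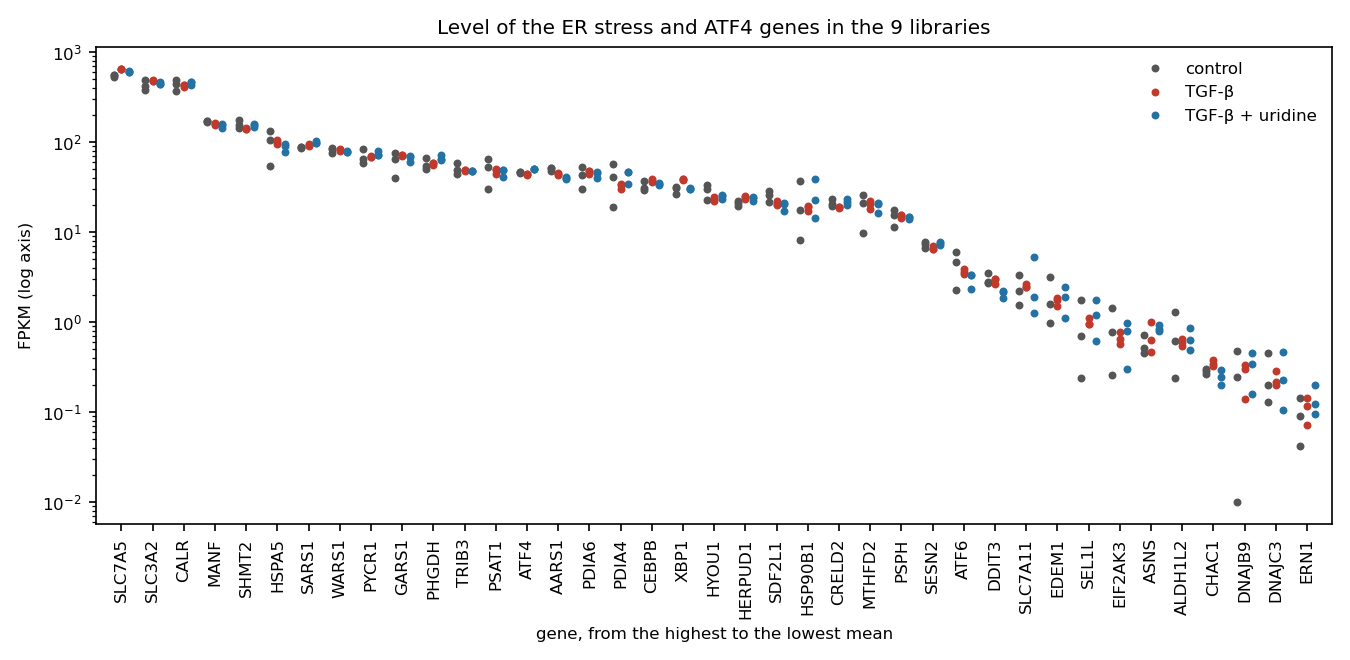
FPKM of the 39 genes in the 9 libraries on a log axis, ordered by the mean over all libraries, with grey, red and blue points for the control, TGF-β and TGF-β + uridine libraries. The range runs from SLC7A5 (mean 604) to ERN1 (mean 0.115), and the grey points of a gene spread more widely than its red points in most columns.

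The promoters of these genes are known for short stress motifs, and a few are shown because they tie the genes to the sensors above. RefSeq promoter windows on GRCh38.p14, from 250 bases before to 50 bases after each start, were found for 34 of the 39 genes; PSPH, SHMT2, ALDH1L2, PYCR1 and SLC7A11 had none. Both strands were searched for the ER stress response element, which is CCAAT and CCACG with 9 bases between them and is bound by ATF6 with NF-Y, for its second form, ATTGG and CCACG with 1 base between them, for the core TGACGTGG bound by spliced XBP1 and ATF6, and for the core TGATGNAA bound by ATF4 with C/EBP partners. Sequences are given 5′ to 3′ on the strand of the gene, with the fixed letters of the motif in capitals.
XBP1: gctggCCAATcgcggagggCCACGaccgt
HSPA5: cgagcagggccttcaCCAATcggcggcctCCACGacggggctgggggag
CRELD2: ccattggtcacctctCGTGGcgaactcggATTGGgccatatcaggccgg
HYOU1: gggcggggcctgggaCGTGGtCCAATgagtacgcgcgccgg
HERPUD1: cggacgccgATTGGgCCACGttgggagag
ASNS: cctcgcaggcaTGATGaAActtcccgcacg
AARS1: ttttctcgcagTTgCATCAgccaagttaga
GARS1: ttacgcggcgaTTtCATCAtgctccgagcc
The XBP1 run lies at chr22:28800598-28800626 (minus strand), the HSPA5 run at chr9:125241376-125241424 (minus strand), the CRELD2 run at chr22:49918539-49918587 (plus strand), the HYOU1 run at chr11:119057259-119057299 (minus strand) and the HERPUD1 run at chr16:56932016-56932044 (plus strand), none of them over an exon of GENCODE v29. The ASNS run at chr7:97872458-97872487 (minus strand), the AARS1 run at chr16:70289675-70289704 (minus strand) and the GARS1 run at chr7:30594834-30594863 (plus strand) overlap an exon of at least 1 annotated transcript.

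The first form of the ER stress response element was found in 6 of the 34 genes (PDIA6, HSPA5, HSP90B1, CALR, XBP1 and CRELD2) and the second form in 3 (HYOU1, HERPUD1 and SDF2L1), against 0.0916% and 0.0696% of the 27305 symbols with a window. The ATF4 core was found in 6 of the 34 (CHAC1, ASNS, SLC3A2, AARS1, GARS1 and HERPUD1) against 4.46% of symbols, and the XBP1 core in 1 (HYOU1, where it overlaps a match of the second form) against 0.927%. The 9 genes with either form of the ER stress response element had a median log2 fold change of -0.02, -0.08 and 0.03 in the 3 comparisons, with 4, 4 and 5 of them above 0. The 6 genes with the ATF4 core had medians of 0.26, -0.12 and 0.08, with 5, 1 and 4 above 0. A match is a description of the sequence and was not tested against binding, and none of these genes passed the test.

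XBP1 was the gene of the set that stood closest to a call. Its normalized level (CPM, each count scaled to a common library size) was 62.6, 57.8 and 53.1 in the control libraries, 77.2, 74 and 75.9 in the TGF-β libraries, and 58, 63.7 and 54.9 in the TGF-β + uridine libraries. All 3 TGF-β libraries lay above all 6 others, and the control and TGF-β + uridine libraries overlapped. The log2 fold change was 0.39 ± 0.1 (SE, n = 3 against 3) in TGF-β against control, with an adjusted p of 0.082 by edgeR, and -0.36 ± 0.1 in TGF-β + uridine against TGF-β, with an adjusted p of 0.318. Against control the TGF-β + uridine group gave 0.03, with an interval of -0.2 to 0.25. The exact permutation test gave p = 0.1 for each of the first 2 differences, which is the smallest that 3 libraries against 3 allow.

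The call on XBP1 was made in 7 of 21 alternatives in TGF-β against control and in 6 of 21 in TGF-β + uridine against TGF-β. The other alternatives did not call XBP1. Without control replicate 1, edgeR called it in TGF-β against control (log2 fold change 0.45, adjusted p 0.0136) and in TGF-β + uridine against TGF-β (-0.38, adjusted p 0.0446), and with the GC slope of each library as a covariate the adjusted p was 4.59e-05 and 0.000319. With upper-quartile normalization the first was called (adjusted p 0.0322), and with only the 2 groups compared the second (adjusted p 0.0453). Its direction in these comparisons was the same in all 21 alternatives, with log2 fold changes of 0.33 to 0.45 and of -0.42 to -0.32.

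The 3 sensors gave no called change by edgeR on all 9 libraries without a covariate. ATF6 had 22.2, 35.7 and 41.4 CPM in the control libraries, 28.4, 28.8 and 30.3 in the TGF-β libraries and 25.8, 19.7 and 24.3 in the TGF-β + uridine libraries. The TGF-β + uridine libraries lay below all 3 TGF-β libraries, but control replicate 1 lay among them. The log2 fold change was -0.33 ± 0.21 in TGF-β + uridine against TGF-β (adjusted p 0.779, edgeR) and -0.51 ± 0.21 in TGF-β + uridine against control (adjusted p 0.257). Without control replicate 1 the latter was -0.75, with an adjusted p of 0.00486. EIF2AK3 had 53 to 289 reads and ERN1 19 to 92 reads in a library, and their intervals in TGF-β against control ran from -1.32 to 0.93 and from -0.63 to 1.29. EIF2AK3 and ERN1 overlapped between all groups.

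Among the ER chaperones and folding enzymes HYOU1 (ORP150, a large chaperone and exchange factor for BiP) was lower in both treated groups in normalized CPM. It had 132, 140 and 139 CPM in the control libraries, 110, 112 and 118 in the TGF-β libraries and 120, 118 and 111 in the TGF-β + uridine libraries. Every treated library lay below every control library in CPM, and both treated groups overlapped. In FPKM, control replicate 1 of HYOU1 stood at 22.8, inside the range of the TGF-β libraries (22.5 to 25). Control replicates 2 and 3 stood at 30.5 and 33.9, and the TGF-β + uridine libraries at 23.2 to 26.2. The log2 fold change was -0.27 ± 0.08 in TGF-β against control (adjusted p 0.154, edgeR) and -0.24 ± 0.08 in TGF-β + uridine against control (adjusted p 0.164). Without control replicate 1 both passed, at 0.0335 and 0.0276.

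HSPA5, the most abundant heat shock protein 70 of the ER, showed how wide the control group was. Its level was 263, 398 and 453 CPM in the control libraries, 385, 393 and 409 in the TGF-β libraries and 341, 326 and 344 in the TGF-β + uridine libraries. The TGF-β + uridine libraries lay below the TGF-β libraries, and the control libraries lay on both sides of them. The log2 fold change in TGF-β + uridine against TGF-β was -0.23 ± 0.17 (adjusted p 0.832, edgeR), and against control, without control replicate 1, it was -0.36 and called (adjusted p 0.0179). PDIA4, a protein disulfide isomerase, went the other way, with 86.9, 93.2 and 95.8 CPM in the TGF-β libraries, 126, 103 and 123 in the TGF-β + uridine libraries and 65.3, 112 and 138 in the control libraries. Its log2 fold change between the treated groups was 0.35 ± 0.23 (adjusted p 0.781), and in TGF-β against control it was -0.19, or -0.45 and called without control replicate 1 (adjusted p 0.0449).

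The intervals of the other chaperone genes all held 0. CALR had 816 to 858 CPM in the control libraries, 815 to 823 with TGF-β and 824 to 886 with TGF-β + uridine, and its interval of -0.21 to 0.17 in TGF-β against control was among the narrowest. PDIA6, a further disulfide isomerase, had log2 fold changes of 0.18 and -0.12 in the first 2 comparisons, and the cochaperones and secreted ER factors SDF2L1, MANF and CRELD2 had -0.3, -0.12 and -0.19 in TGF-β against control. HSP90B1 (GRP94, the HSP90 of the ER) ranged from 27.6 to 88.9 CPM within the control group alone. The HSP40 cochaperones DNAJB9 and DNAJC3 had 1 to 48 and 30 to 130 reads in a library. Over the 11 genes of this role, 3 had positive and 8 negative log2 fold changes in TGF-β against control, 7 and 4 in TGF-β + uridine against TGF-β, and 6 and 5 in TGF-β + uridine against control, and 0 were called.

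Of the genes that clear misfolded protein from the ER, HERPUD1, a scaffold of the retrotranslocation complex, had 54.4 to 68.9 CPM in the control libraries and 66.9 to 75.1 with TGF-β, with a log2 fold change of 0.23 ± 0.11 (adjusted p 0.483, edgeR), or 0.32 without control replicate 1 (adjusted p 0.0399). SEL1L, the partner of the ubiquitin ligase HRD1, ran from 2.52 to 12.9 CPM in the control libraries and had 8.33 to 9.52 with TGF-β, all inside the control range. EDEM1, a mannosidase-like factor that marks glycoproteins for disposal, had log2 fold changes of -0.08, 0.04 and -0.04 in the 3 comparisons.

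ATF4 itself was abundant and moved little. It had 436, 351 and 302 CPM in the control libraries, 354, 335 and 338 in the TGF-β libraries and 380, 420 and 360 in the TGF-β + uridine libraries. In CPM the TGF-β + uridine libraries lay above all 3 TGF-β libraries, whereas the control libraries spread across both groups. In FPKM they stood at 50.4 to 51.2, above the control (45.3 to 47.1) and TGF-β libraries (43.3 to 44.5). On the log2 scale ATF4 differed by 0.18 ± 0.14 between the treated groups (adjusted p 0.836, edgeR) and -0.09 ± 0.14 in TGF-β against control. The first difference was called by limma on FPKM, at 0.2 to 0.21 (adjusted p 0.0274 to 0.0327). It was also called by edgeR with the GC slope as a covariate, at 0.19 (adjusted p 0.00208).

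DDIT3 (CHOP, the transcription factor linked to cell death after prolonged stress) was lower with uridine. It had 3.91, 3.98 and 2.83 CPM in the control libraries, 3.67, 3.15 and 3.51 in the TGF-β libraries and 2.49, 2.38 and 2.44 in the TGF-β + uridine libraries, from 91 to 167 reads each. The 3 TGF-β + uridine libraries lay below the other 6. The log2 fold change was -0.5 ± 0.21 against TGF-β (adjusted p 0.542, edgeR) and -0.55 ± 0.21 against control (adjusted p 0.207), so the difference did not pass the test.

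CHAC1, an enzyme that breaks down glutathione and lies downstream of ATF4 and CHOP, had 2.41, 2.01 and 2.09 CPM with TGF-β and 1.47, 1.91 and 1.13 with TGF-β + uridine. These groups did not overlap either, from 50 to 96 reads a library, and the log2 fold change was -0.53 ± 0.28 (adjusted p 0.669, edgeR). CEBPB, a partner of ATF4 and CHOP, was likewise lower in all 3 TGF-β + uridine libraries than with TGF-β, at -0.16, and in TGF-β against control it gave 0.18, or 0.46 and called without control replicate 1 (adjusted p 0.0145, edgeR). TRIB3, a pseudokinase that restrains ATF4 and AKT, and SESN2, a leucine sensor of the mTORC1 pathway, had log2 fold changes between the treated groups of -0.05 and 0.14, with overlapping groups.

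**Figure D3:**
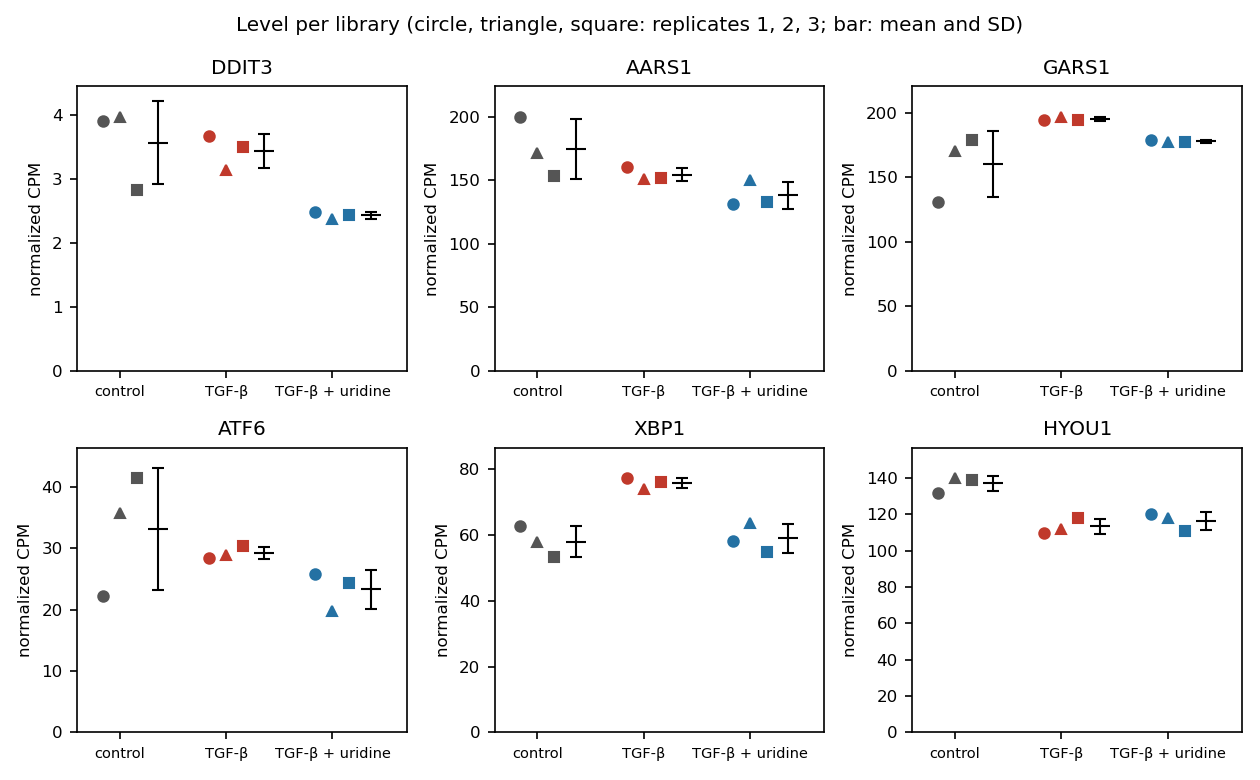
Normalized CPM per library of the 6 genes with an unadjusted p under 0.05 in at least 1 comparison, with circles, triangles and squares for replicates 1, 2 and 3 and black bars for the mean and SD of each group of 3; the axes start at 0. XBP1 stands higher in the 3 TGF-β libraries than in the other 6, DDIT3 lower in the 3 TGF-β + uridine libraries, and HYOU1 higher in the 3 control libraries.

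The serine and one-carbon enzymes were not called by edgeR on all 9 libraries without a covariate. PHGDH, PSAT1 and PSPH catalyse the 3 steps from a glycolytic intermediate to serine, and SHMT2, MTHFD2 and ALDH1L2 carry the one-carbon unit of serine through the mitochondrion. PHGDH had 632, 406 and 331 CPM in the control libraries, 465, 425 and 450 in the TGF-β libraries and 479, 593 and 455 in the TGF-β + uridine libraries, with all groups overlapping. Its log2 fold change was -0.03, 0.19 and 0.16 in the 3 comparisons. Without control replicate 1, edgeR called PHGDH (0.45, adjusted p 0.0444) and PSAT1 (-0.26, adjusted p 0.048) in TGF-β + uridine against control. With all libraries and the GC slope as a covariate, it called PHGDH in TGF-β + uridine against TGF-β (0.21, adjusted p 0.00321) and against control (0.26, adjusted p 0.000341). That fit also called SHMT2 in TGF-β against control (-0.13, adjusted p 0.0301). PSPH had the tightest estimate of the 6, 0.05 ± 0.09 in TGF-β against control, with an interval of -0.16 to 0.25. A pseudogene similar to PSPH lies near it, and how reads that fit both were counted is not given in the sources used here. For the 6 enzymes together the log2 fold changes ran from -0.18 to 0.16, from -0.1 to 0.19 and from -0.11 to 0.16.

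ASNS, which makes asparagine, and PYCR1, which completes proline in the mitochondrion, were measured at very different depths. ASNS had 60 to 134 reads in a library, and its level was 1.78, 2.24 and 1.45 CPM in the control libraries, 1.56, 2.08 and 3.26 with TGF-β and 2.49, 2.9 and 2.78 with TGF-β + uridine. The TGF-β + uridine libraries lay above the control libraries, by 0.58 ± 0.31 on the log2 scale (adjusted p 0.408, edgeR), while the TGF-β libraries overlapped both. PYCR1, at 5516 to 7877 reads, had log2 fold changes of -0.05, 0.08 and 0.04.

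SLC7A5 (LAT1) was the most abundant gene of the set. Its level was 3710, 2890 and 2470 CPM in the control libraries, 3630, 3480 and 3510 in the TGF-β libraries and 3170, 3460 and 2990 in the TGF-β + uridine libraries. All 3 libraries with uridine were lower than the 3 with TGF-β alone, and in CPM the control libraries spanned both groups. In FPKM the groups did not overlap, at 533 to 566 in control, 599 to 613 with TGF-β + uridine and 647 to 659 with TGF-β. SLC7A5 differed by 0.23 ± 0.15 on the log2 scale in TGF-β against control (adjusted p 0.739, edgeR) and -0.14 ± 0.15 in TGF-β + uridine against TGF-β (adjusted p 0.922). Without control replicate 1 the first difference was 0.4 and called (adjusted p 0.0487), and limma on FPKM also called it, at 0.24 (adjusted p 0.00672 to 0.0137). Its partner SLC3A2 gave 0.12 and -0.11. SLC7A11 (xCT), which exchanges glutamate for cystine and also pairs with SLC3A2, had 24.4 to 26 CPM in the TGF-β libraries but 18, 13.3 and 48.2 in TGF-β + uridine replicates 1, 2 and 3, so its log2 fold change of 0.08 ± 0.42 rests on libraries that differ 3.64-fold among themselves.

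The tRNA synthetases did not move together. GARS1, which charges glycine, had 131, 170 and 179 CPM in the control libraries, 194, 197 and 194 with TGF-β and 179, 177 and 177 with TGF-β + uridine. The TGF-β libraries lay above the other 6 in CPM, and the log2 fold change was 0.29 ± 0.12 against control (adjusted p 0.353, edgeR). In FPKM, GARS1 stood at 69.9 to 73 with TGF-β, at 77 in control replicate 3 and at 71.1 in TGF-β + uridine replicate 3. AARS1, which charges alanine, had 200, 171 and 153 CPM in the control libraries, 160, 151 and 152 with TGF-β and 131, 150 and 133 with TGF-β + uridine. The TGF-β + uridine libraries were the 3 lowest, at -0.34 ± 0.12 against control (adjusted p 0.151) and -0.17 ± 0.12 against TGF-β (adjusted p 0.804). Limma on FPKM called the difference of AARS1 from control, at -0.3 (adjusted p 0.0048 to 0.00562). WARS1 and SARS1, which charge tryptophan and serine, had log2 fold changes of 0 and 0.09 in TGF-β against control and -0.09 and 0.05 between the treated groups. In TGF-β + uridine against control SARS1 gave 0.15 (adjusted p 0.733, edgeR), and limma on FPKM called it at 0.19 (adjusted p 0.0173 to 0.0179).

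Groups that did not overlap in normalized CPM were counted over all 39 genes. In TGF-β against control 2 genes were higher in all 3 libraries (GARS1 and XBP1) and 1 lower (HYOU1), against 17.7% of all tested genes that did not overlap in either direction. In TGF-β + uridine against control 1 was higher (ASNS) and 3 lower (DDIT3, AARS1 and HYOU1), against 19.7%. In TGF-β + uridine against TGF-β 3 were higher (ATF4, CALR and PDIA4) and 10 lower (DDIT3, CEBPB, CHAC1, SLC7A5, AARS1, GARS1, ATF6, XBP1, HSPA5 and PDIA6), which is 33.3% of the 39 against 25.6% of all tested genes. The TGF-β and TGF-β + uridine groups were also the 2 in which libraries of one group lay closest together.

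That difference in spread ran through the whole set. The fold between the highest and the lowest library of a group had a median over the 39 genes of 1.68 in the control group, 1.08 in the TGF-β group and 1.22 in the TGF-β + uridine group, and it exceeded 2-fold for 10, 2 and 6 genes. Control replicate 1 was the highest or lowest control library for 37 of the 39 genes. In 19 genes control replicate 1 was highest, 2 in the middle and 3 lowest, and in 17 genes the order was the reverse. The first kind had a median GC content of 56.7% and the second of 42.3%. Over all tested genes 77% were ordered in one of these ways, with median GC contents of 57.1% and 42.5%.

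**Figure D4:**
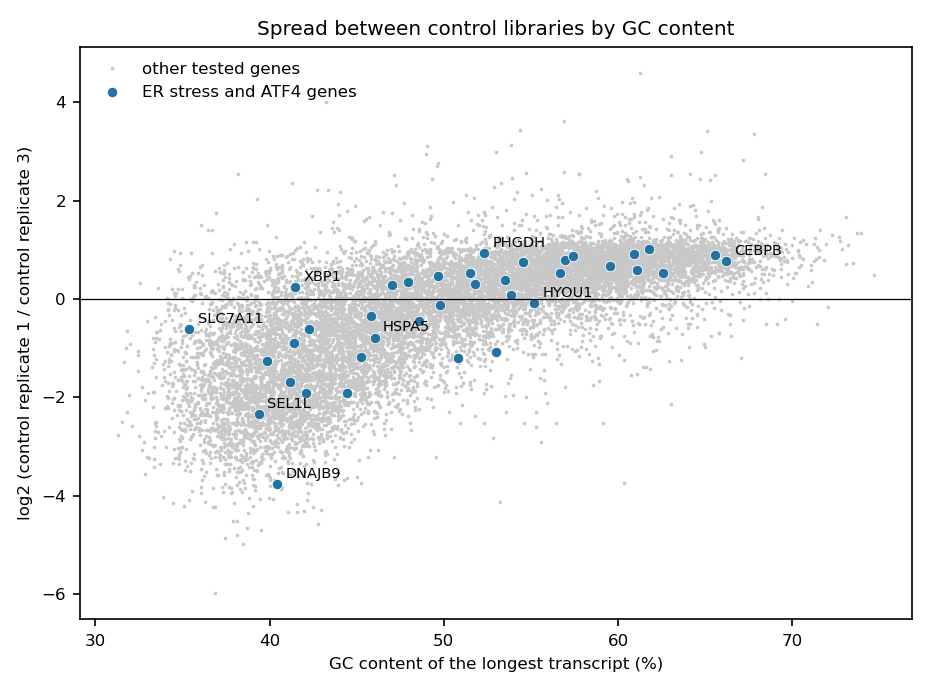
Log2 ratio of control replicate 1 to control replicate 3 against the GC content of the longest GENCODE v29 transcript, with blue points for the 39 genes and grey points for the other tested genes. The blue points follow the grey cloud, from DNAJB9 at -3.76 to a highest value of 1.01, with a Pearson r across the 39 genes of 0.73 (Spearman 0.82).

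Across genes the log2 ratio of control replicate 1 to 3 correlated with GC content at a Pearson r of 0.73 over the 39 genes and 0.71 over 12759 tested genes, as a description of 2 libraries in which the genes share library and base composition. With each library's GC slope as a covariate in the same edgeR model, 13, 9 and 13 of the 39 genes were called in the 3 comparisons, against 20.3%, 19.1% and 31.2% of all tested genes. The slope was measured on these same libraries, and what made it differ was not tested.

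In TGF-β against control with the covariate, 9 genes rose (XBP1, SLC7A5, GARS1, SLC3A2, HERPUD1, SEL1L, PDIA6, CEBPB and SARS1) and 4 fell (HYOU1, AARS1, SHMT2 and SDF2L1). In TGF-β + uridine against TGF-β 4 rose (ATF4, PHGDH, PDIA4 and CRELD2) and 5 fell (XBP1, ATF6, SLC7A5, HSPA5 and AARS1). Against control 7 rose with TGF-β + uridine (PHGDH, SARS1, SLC7A5, SEL1L, ATF4, HERPUD1 and PYCR1) and 6 fell (AARS1, ATF6, HYOU1, SDF2L1, MANF and DDIT3). These differences were small, between 0.12 and 0.56 on the log2 scale.

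Genes of the same pathways outside the set were counted from lists, again by edgeR over all tested genes. Of 22 tested targets of ATF4 and the integrated stress response, of 16 other cytosolic aminoacyl-tRNA synthetases and of 14 kinases and regulators of the integrated stress response, 0 were called in any comparison. With the GC slope as a covariate the ATF4 targets gave 4 up and 3 down, 3 up and 4 down, and 3 up and 5 down in the 3 comparisons, the synthetases 1 and 2, 1 and 2, and 3 and 2, and the regulators 1, 2 and 3 up with 0 down. These counts stand against the shares of 20.3%, 19.1% and 31.2% of all tested genes. DDIT4, an inhibitor of mTORC1 in that list, had 312, 297 and 300 CPM with TGF-β and 217, 245 and 212 with TGF-β + uridine, a log2 fold change of -0.43 ± 0.12 with an adjusted p of 0.302. The TGF-β + uridine libraries of DDIT4 lay below every other library. Of the same list, CTH, which makes cysteine, had a log2 fold change of -0.78 in TGF-β + uridine against control (adjusted p 0.0571), VEGFA, an angiogenic growth factor, one of 0.36 (adjusted p 0.061), and GDF15, a stress cytokine, one of -0.72 in TGF-β against control (adjusted p 0.159). In these comparisons DDIT4 was called in 7 of 21 alternatives, CTH in 5, VEGFA in 4 and GDF15 in 5. The synthetases KARS1, QARS1, CARS1 and EPRS1 had 0.14, -0.2, 0.08 and -0.79 in TGF-β against control. The value of EPRS1 had an SE of 0.7, with 8.95, 30.8 and 80.9 CPM in the control libraries, and ran from -1.27 to 0.22 over the alternatives. EIF2S1, which encodes eIF2α, had 0.26 in TGF-β against control, and EIF2B1, EIF2B2 and EIF2B3, subunits of its exchange factor, had 0.31, 0.25 and 0.28 in TGF-β + uridine against control.

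Among 37 tested ER folding, sensing and degradation genes, 2 rose in TGF-β against control, beside 3.38% of all tested genes called in either direction. CREB3L2, a relative of CREB3L1, had 0.63 there (adjusted p 0.136, edgeR). CREB3L1, an ER-anchored transcription factor related to ATF6 and known for collagen secretion, had 21.2, 15 and 11 CPM in the control libraries, 46.3, 49.7 and 50.6 with TGF-β and 33.6, 40.8 and 33.4 with TGF-β + uridine. It rose by 1.63 ± 0.22 in TGF-β against control (adjusted p 0.00356, edgeR) and by 1.19 ± 0.22 in TGF-β + uridine against control (adjusted p 0.0141), and the 3 groups did not overlap. The call in TGF-β + uridine against control was lost without control replicate 2 and without TGF-β + uridine replicate 2. KDELR3, a receptor that returns ER proteins from the Golgi, rose by 0.72 ± 0.15 with TGF-β (adjusted p 0.0327), and MBTPS1, the protease that makes the first cut in ATF6, fell by 0.46 on the log2 scale in TGF-β + uridine against control (adjusted p 0.0201). The call on KDELR3 held in 10 of 21 alternatives and was lost without any library other than control replicate 1. The call on MBTPS1 held in 8 and was lost without control replicate 2 or any treated library.

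Transporters and enzymes of amino acids gave a few calls, beside 3.38% of all tested genes in TGF-β against control and 5.33% in TGF-β + uridine against control. Of 14 other amino acid transporters, SLC1A4, which carries alanine, serine and cysteine, rose by 0.84 ± 0.15 in TGF-β against control (adjusted p 0.0178, edgeR) and by 1.14 ± 0.15 in TGF-β + uridine against control (adjusted p 0.00383). SLC7A8 (LAT2, a further partner of SLC3A2) fell in these comparisons (log2 fold changes -1.03 and -1.23, adjusted p 0.0323 and 0.0114), and SLC6A9, a glycine transporter, fell by 0.86 in the second of them (adjusted p 0.0273). Among 20 serine, one-carbon and proline enzymes, PRODH, which consumes proline, fell in TGF-β + uridine against control (log2 fold change -1.97, adjusted p 0.0399), and 0 were called in the other comparisons. Without control replicate 2 only the call on SLC1A4 in TGF-β + uridine against control remained of these 6. The others were also lost without single treated libraries, and over all alternatives their adjusted p reached at most 0.174. SLC7A1, a transporter of cationic amino acids, and GLDC and AMT, of the glycine cleavage system, had log2 fold changes of 0.16, 1.96 and 1.72 in TGF-β + uridine against control, and were not called (lowest adjusted p 0.134, edgeR). GLDC and AMT lay near the floor, each at 0.0629 CPM in control replicate 3, which is worth 3 reads.

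The cytosolic heat shock genes, which answer to unfolded protein outside the ER, gave 2 calls among 14 in TGF-β + uridine against control, beside 5.33% of all tested genes. HSPA1A and HSPA1B, which are nearly identical in sequence so that reads may be split between them, had 175 to 208 and 103 to 112 CPM in the control libraries and 112 to 128 and 61.5 to 74.9 with TGF-β + uridine. They fell, with log2 fold changes of -0.66 and -0.65 (adjusted p 0.00692 and 0.00642, edgeR), and the TGF-β libraries lay between the other groups. Both calls were lost with only the 2 groups compared (adjusted p 0.0518 and 0.0664), and that on HSPA1B also by limma on all listed genes. The small heat shock genes HSPB1 and HSPB8 had 0.54 and -0.23 in TGF-β against control, neither called by edgeR on all 9 libraries. They were called in 6 and 5 of 21 alternatives. In the edgeR model of condition alone over all 9 libraries, no gene of the 7 lists was called in TGF-β + uridine against TGF-β. That fit called 6 genes there in all. Of the list genes named here, DDIT4, SLC6A9 and HSPB8 were each called there in 7 of 21 alternatives. With the GC slope as a covariate the ER genes gave 8 up and 3 down, 5 up and 8 down, and 9 up and 6 down in the 3 comparisons. The transporters gave 3 and 5, 2 and 2, and 4 and 5, and the enzymes 2 and 3, 3 and 1, and 4 and 6. The heat shock genes gave 1 and 5, 1 and 3, and 3 and 4. These counts stand against 20.3%, 19.1% and 31.2% of all tested genes.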

How the data were processed

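RNA of 9 LX-2 libraries was analysed, 3 per group, and groups were taken from the sample labels. The authors deposited read counts per gene symbol, as whole numbers without normalization, and FPKM values of the same genes. Per the submitters' processing notes, reads passed through fastp, HISAT2, HTSeq and R 3.2.0 on GRCh38.p13, and handling of strand and of reads with several hits is not given in the sources used here. Dividing the deposited FPKM values into the counts and the library totals gave 1 fixed length per gene, with a largest ratio of lengths over libraries of 1. No 2 libraries of a group agreed within sampling noise (chi-square per degree of freedom 4.18 to 294).

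With edgeR 4.0.16 under R 4.3.3, counts were fitted (TMM factors, filterByExpr, glmQLFit, glmQLFTest) in 1 model of condition over all 9 libraries, two-sided, with Benjamini-Hochberg adjustment over 13384 tested genes. Normalized CPM used the same TMM factors, which were 0.82, 1.04 and 1.16 in control replicates 1, 2 and 3 and which FPKM does not use. Standard errors and 95% intervals come from the fit. The common biological coefficient of variation was 0.289. With 40539751 to 41467124 reads per library, 3 reads, the limit for a count of 0, are worth 0.0629 to 0.0889 CPM, which covers counting error only. GC content is that of the longest GENCODE v29 transcript (39 of 39 genes and 95.3% of tested genes). Alternatives were DESeq2 1.42.0, limma 3.58.1 on log2(FPKM + 1) or log2(FPKM + 0.1), other normalizations and filters, only the 2 groups compared, the replicate number as a block, the GC slope as a covariate, and each library left out.

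The text names every one of the 39 genes by role, at most 4 genes of each pathway list with the lowest edgeR p in any comparison, and PMEPA1 and ACTA2 as a check of the treatment. Results of 2 genes within this rule are not reported here. The genes and lists were chosen with earlier results of these data known. The tests were tested on simulated counts with known changes. Those counts held no GC gradient, and their changes were larger than those fitted for the 39 genes. The check therefore does not cover small changes or libraries that differ in GC slope. The marker genes LRAT, ALB, TTR, PTPRC and CD3E were not found by symbol among the genes listed, so no level is given for them.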

Additional observations from a re-analysis of the deposited data

How the results depend on the processing

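No result changed direction while called, and the median log2 fold change of the 39 genes moved in no alternative by more than the spread between libraries (SD 0.19 on the log2 scale). In TGF-β against control, 453 genes were called by edgeR, against 719 by DESeq2, 229 with only the 2 groups compared, 2716 with the GC slope as a covariate, 2343 with the replicate block and that covariate, and 803, 793 and 796 by limma on log2(FPKM + 1), on log2(FPKM + 0.1) and on all listed genes. Of the 39 genes, 1 was called with upper-quartile normalization, 13 with the covariate, 10 with block and covariate and 2 by each limma fit. In TGF-β + uridine against TGF-β, 6 genes became 117 by DESeq2, 10 with upper-quartile normalization, 317 with only the 2 groups, 2558 with the covariate, 2067 with block and covariate, and 385, 378 and 295 by limma. Of the 39 genes, 1 was called with only the 2 groups, 9 with the covariate, 8 with block and covariate, and 2, 2 and 1 by limma. In TGF-β + uridine against control, 714 genes became 1103 by DESeq2, 222 with only the 2 groups, 4170 with the covariate, 3765 with block and covariate, and 1421, 1402 and 1364 by limma, and of the 39 genes 13 were called with the covariate, 12 with block and covariate and 3 by each limma fit. The cause of these differences was not tested.

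With single libraries left out, the 3 comparisons gave 218 to 1085, 0 to 271 and 304 to 2413 called genes and 0 to 6, 0 to 1 and 0 to 5 of the 39. The upper values are those without control replicate 1, and every other omission gave 0 of the 39. The labels do not say whether the replicate numbers pair the samples. Correlations of same-numbered libraries' deviations ran from -0.21 to 0.56. These deviations also carry the GC slope of each library, so they cannot decide the pairing. The replicate block called 314, 0 and 437 genes and 0 of the 39. Of the values of the 39 genes, 87 crossed to a call under an alternative other than leaving out a library and 12 without a library, all in the direction first fitted. The lowest numbers of reads in a library were those of DNAJB9, ERN1 and DNAJC3.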
